A study of Mus musculus with 21 samples.

Results

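The matrix metalloproteinases (MMPs) and tissue inhibitors of metalloproteinases (TIMPs) described here were 10 mouse genes, namely Mmp2, Mmp3, Mmp9, Mmp10, Mmp11, Mmp13, Mmp14, Timp1, Timp2 and Timp3. They were taken by symbol, in the upper case of the tables (MMP2, MMP3, MMP9, MMP10, MMP11, MMP13, MMP14, TIMP1, TIMP2 and TIMP3), from 3 tables of gene counts that shared 24447 genes, and all 10 were listed in each table. RNA sequencing had been run on 21 cultures of immortalized mouse fibroblasts, in 7 groups of 3, to ask what fibroblasts express with and without Prrx1, a homeobox transcription factor of mesenchymal cells. Mouse embryonic fibroblasts (MEF), isolated from embryos of day 10 to 13, formed the groups WT MEF, Prrx1 mutant MEF and sgPrrx1 MEF, all with the strain given as C57BL/6. Prrx1 mutant MEF came from mice designated 129S-Prrx1tm1Jfm/Mmmh, whose allele has LacZ inserted in frame in the homeodomain. The study's methods give these mice as backcrossed to C57BL6, and a difference in strain background that remained from WT MEF cannot be told apart from the allele. The sgPrrx1 cells carried a Cas9 guide against the first exon of Prrx1. WT and sgPrrx1 wound-healing fibroblasts came from dorsal skin of C57BL/6 mice at day 10 after wounding. WT and sgPrrx1 MMTV-CAF were cancer-associated fibroblasts from breast tumours of FVB/NJ mice with the MMTV-PyMT transgene, in which a mammary tumour virus promoter drives the polyoma middle T antigen. All 7 groups were immortalized with the HPV oncogenes E6 and E7 and grown in serum, and the study's methods name a non-targeting guide as the control for the guide experiments; whether WT MEF carried it is not given in the sources used here. Nothing in the sources says that the cultures of a group were separate isolations, so p-values measure only the spread between these cultures, which may be technical. Strain and cell type cannot be told apart for MMTV-CAF.

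MMPs are zinc-dependent endopeptidases, secreted or anchored in the membrane, that are made as inactive proenzymes and cut collagens, proteoglycans, growth factors and each other. TIMPs occupy the active site of MMPs, and Timp2 also bridges pro-Mmp2 to membrane-bound Mmp14, which cuts the proenzyme at the cell surface. Fibroblasts are a main source of these proteins in healing skin and in tumour stroma, and RNA levels report neither activation nor inhibition of the enzymes.

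The cultures held 69588655 to 134790440 gene counts each. Prrx1 itself fell in all 4 comparisons with WT, by 3.04 on the log2 scale in Prrx1 mutant MEF (SE 0.14, adjusted p = 6.83e-06), 0.60 in sgPrrx1 MEF (SE 0.14, adjusted p = 0.0145), 1.18 in sgPrrx1 wound-healing fibroblasts (SE 0.03, adjusted p = 1.72e-09) and 1.06 in sgPrrx1 MMTV-CAF (SE 0.02, adjusted p = 7.22e-10; edgeR quasi-likelihood tests with Benjamini-Hochberg adjustment over all genes tested, as throughout). A guide edits DNA and need not lower the mRNA, so the partial drops do not measure how much protein was lost. Of 9 fibroblast markers, all had counts in 5 groups. Lum, a collagen-binding proteoglycan, was at 0 in Prrx1 mutant MEF and in sgPrrx1 wound-healing fibroblasts. It was also scarce in their WT groups, at 0 to 12 counts per culture in WT MEF and 10 to 19 in WT wound-healing fibroblasts. The summed level of the 9 markers was lower in each Prrx1-loss group than in its WT group, for example 15757 to 15957 against 31705 to 32303 CPM (counts scaled to a library total of 1e+06) in MMTV-CAF. Of the single markers tested, 8 of 8 fell in Prrx1 mutant MEF, 7 of 8 in sgPrrx1 MEF, 9 of 9 in wound-healing fibroblasts and 7 of 9 in MMTV-CAF. Of all genes tested, 30.5%, 22.8%, 39.3% and 41.9% fell in these comparisons, in the same order. The other markers tested rose, namely Vim in sgPrrx1 MEF (log2 fold change 0.34) and, in MMTV-CAF, Dcn from 32.4 to 588 CPM and Pdgfra from 939 to 1834 CPM. Macrophage, epithelial and neutrophil markers each summed to 13.6 CPM or less in every culture, with Adgre1 and S100a9 at 0 throughout and Epcam at 0 in 5 groups. Endothelial markers summed to 287 to 293 CPM in WT and 140 to 145 CPM in sgPrrx1 wound-healing fibroblasts, and to 5.09 CPM or less in every other culture. In wound-healing fibroblasts nearly all of that sum was Kdr, at means of 290 CPM in WT and 142 CPM in sgPrrx1 cultures. Pecam1 and Tie1 were at 0 in both of these groups. The part of these shifts in the results that follow was not tested.

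The members differed widely in level. On a scale that allows genes to be compared, RPKM (CPM divided by exon length in kilobases), Mmp14, Mmp2 and the 3 TIMPs were abundant, whereas Mmp3, Mmp9, Mmp10 and Mmp13 were scarce. Mmp14 had group means of 58.9 to 335 RPKM and Mmp2 of 16.7 to 282 RPKM. Together these 2 genes made up 96.4% of the summed level of the 7 MMPs in WT MEF. Timp1 ranged from 95.1 to 375 RPKM, Timp2 from 105 to 195 RPKM and Timp3 from 19.99 to 215 RPKM between groups. Mmp11 lay between, at 7.396 to 30.3 RPKM. The remaining 4 MMPs stayed at 2.41 RPKM or less in every culture, except Mmp3 in WT MMTV-CAF with a mean of 13.1 RPKM. All levels that follow are in CPM, scaled jointly over the 21 cultures by the TMM method, and are compared within a gene. In bulk RNA, fewer cells that express a gene and less RNA per cell cannot be told apart.

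**Figure D1:**
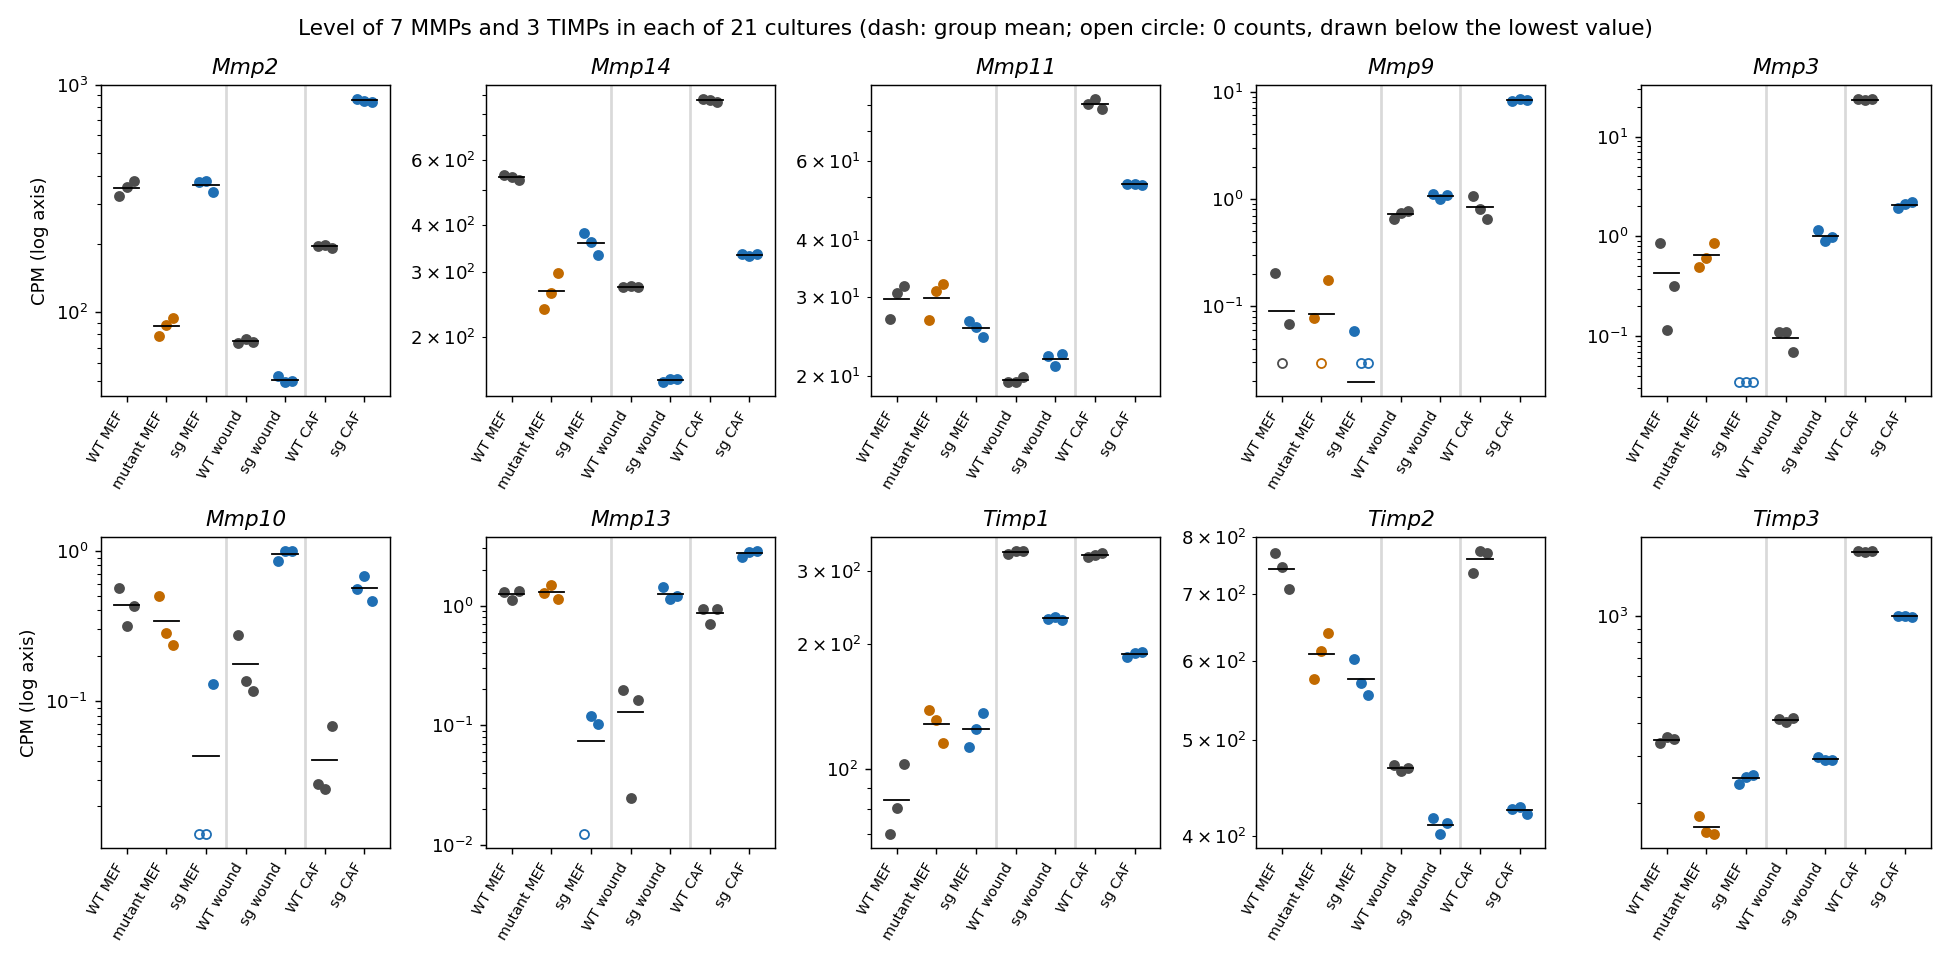
Level of each of the 7 MMPs and 3 TIMPs in CPM (log axis) in the 21 cultures, with WT in grey, Prrx1 mutant in orange, sgPrrx1 in blue and the group mean as a dash. Mmp14 and Timp3 lie below WT in every Prrx1-loss group, Mmp2 lies below WT in Prrx1 mutant MEF and above it in sgPrrx1 MMTV-CAF, and Mmp3 was at 0 counts in all 3 sgPrrx1 MEF cultures.

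Mmp14 encodes MT1-MMP, the membrane-anchored collagenase that also activates pro-Mmp2, and it was lower in all 4 Prrx1-loss groups. Its level was 548, 540 and 532 CPM in WT MEF, 237, 263 and 297 CPM in Prrx1 mutant MEF and 381, 362 and 332 CPM in sgPrrx1 MEF. No culture of either Prrx1-loss group reached the WT range, and the Prrx1 mutant cultures lay below the sgPrrx1 cultures. In wound-healing fibroblasts it was 273, 274 and 273 CPM in WT and 151, 154 and 154 CPM in sgPrrx1 cultures, and in MMTV-CAF it was 877, 875 and 862 CPM in WT and 334, 330 and 336 CPM in sgPrrx1 cultures. These groups again did not overlap. The log2 fold change was -1.05 in Prrx1 mutant MEF (SE 0.09, adjusted p = 0.000105), -0.61 in sgPrrx1 MEF (SE 0.07, adjusted p = 0.000749), -0.84 in wound-healing fibroblasts (SE 0.02, adjusted p = 1.70e-09) and -1.40 in MMTV-CAF (SE 0.02, adjusted p = 1.68e-10). The drop was larger in MMTV-CAF than in sgPrrx1 MEF (difference of log2 fold changes -0.78, SE 0.06, adjusted p = 1.60e-08) and larger than in wound-healing fibroblasts (-0.51, SE 0.06, adjusted p = 1.62e-06).

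Mmp2, gelatinase A, which cuts denatured and basement-membrane collagens, did not share one direction. Its level was 326, 354 and 379 CPM in WT MEF, 79.0, 87.8 and 94.4 CPM in Prrx1 mutant MEF and 376, 378 and 340 CPM in sgPrrx1 MEF. The mutant cultures lay far below WT while the sgPrrx1 cultures lay within the WT range. It was 73.2, 76.5 and 73.8 CPM in WT and 52.3, 49.4 and 50.1 CPM in sgPrrx1 wound-healing fibroblasts, but 196, 198 and 191 CPM in WT and 868, 854 and 845 CPM in sgPrrx1 MMTV-CAF, the highest Mmp2 level of the 7 groups. Mmp2 was therefore 4.12-fold lower in Prrx1 mutant MEF (log2 fold change -2.04, SE 0.09, adjusted p = 6.72e-06), lower in wound-healing fibroblasts (-0.56, SE 0.03, adjusted p = 3.81e-07) and 4.33-fold higher in MMTV-CAF (2.11, SE 0.02, adjusted p = 1.01e-10). In sgPrrx1 MEF the value was 0.03 (SE 0.08, adjusted p = 0.750). Between cell types the sgPrrx1 change was 2.73 higher on the log2 scale in MMTV-CAF than in wound-healing fibroblasts (SE 0.07, adjusted p = 4.09e-14).

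Mmp9, gelatinase B, which also cuts denatured collagen, was scarce and rose in sgPrrx1 MMTV-CAF. The WT MMTV-CAF cultures had 115, 92 and 87 counts (1.07, 0.801 and 0.657 CPM), and the sgPrrx1 cultures had 914, 1155 and 935 counts (8.11, 8.53 and 8.35 CPM). The groups stood apart, with a 9.83-fold higher level after sgPrrx1 (log2 fold change 3.30, SE 0.14, adjusted p = 1.74e-07). Markers of macrophages, cells known to make Mmp9, summed to 6.90 to 7.89 CPM in WT and 0.928 to 1.02 CPM in sgPrrx1 MMTV-CAF, with Ptprc and Adgre1 at 0 in both groups. Neutrophil markers went the other way, from 0.0280 to 0.113 CPM in WT to 0.248 to 0.428 CPM in sgPrrx1 MMTV-CAF, with S100a9 at 0 in both. The part of either cell type in the result was not tested. In wound-healing fibroblasts Mmp9 went from 59, 60 and 67 counts to 99, 94 and 82 counts (0.56, SE 0.17, adjusted p = 0.0164), a call that was lost without WT replicate 1 (adjusted p = 0.0594) and in a model of all 21 cultures (adjusted p = 0.273). The macrophage markers there summed to 2.77 to 3.58 CPM in WT and 3.90 to 5.12 CPM in sgPrrx1 cultures. The neutrophil markers there summed to 0 CPM in WT and 0.0559 to 0.107 CPM in sgPrrx1 cultures. The part of either in the result was not tested. MEF held at most 14 counts per culture, too few for Mmp9 to be tested.

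Mmp11, stromelysin-3, which is unusual in being activated inside the cell by furin, changed by less than 2-fold in every comparison with WT. It was 80.1, 82.2 and 78.2 CPM in WT and 53.3, 53.3 and 53.1 CPM in sgPrrx1 MMTV-CAF (log2 fold change -0.61, SE 0.03, adjusted p = 1.68e-07). In wound-healing fibroblasts it moved the other way, from 19.4, 19.4 and 19.9 CPM to 22.1, 21.02 and 22.3 CPM (0.15, SE 0.03, adjusted p = 0.00300). Neither pair of groups overlapped. The values against WT MEF were -0.02 in Prrx1 mutant MEF (SE 0.10, adjusted p = 0.900) and -0.23 in sgPrrx1 MEF (SE 0.08, adjusted p = 0.0627), the latter with groups that did not overlap and with an adjusted p of 0.0417 by DESeq2.

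Mmp3 and Mmp10, the stromelysins, and Mmp13, collagenase-3, which cuts fibrillar collagen, lie in a cluster of 10 MMP genes on mouse chromosome 9 (RefSeq, GRCm38.p6), with Mmp13 at 9:7272514-7283333, Mmp3 at 9:7445822-7455975 and Mmp10 at 9:7502342-7510242, within 238 kb. Their promoters are shown because these 3 scarce genes moved together in 2 of the 4 comparisons with WT. The 120 bases before each start site are written 5′ to 3′ on the plus strand, with the AP-1 motif TGACTCA, or its reverse complement TGAGTCA, in capitals.
Mmp13, chr9:7272394-7272513: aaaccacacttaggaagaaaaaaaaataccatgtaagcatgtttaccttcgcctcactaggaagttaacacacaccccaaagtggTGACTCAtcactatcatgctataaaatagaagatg
Mmp3, chr9:7445702-7445821: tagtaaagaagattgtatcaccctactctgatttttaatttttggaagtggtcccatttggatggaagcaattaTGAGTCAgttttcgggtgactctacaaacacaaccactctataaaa
Mmp10, chr9:7502222-7502341: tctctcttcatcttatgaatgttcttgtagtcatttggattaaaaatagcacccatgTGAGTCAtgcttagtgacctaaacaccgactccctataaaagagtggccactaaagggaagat
The AP-1 motif began 35, 46 and 63 bases before the start of Mmp13, Mmp3 and Mmp10, and each window also held TATAAA on the sense strand. Over the 250 bases before the start, searched on both strands, 4.46% of 32851 RefSeq promoters held the AP-1 motif and 7.59% held TATAAA, the latter on the sense strand alone. Neither was found before the start of Mmp11, Mmp14, Timp1, Timp2 or Timp3, and the table used here has no entry for Mmp2 and Mmp9. The homeodomain motif TAATTA, its own reverse complement, was found 229 bases before the start of Mmp10, outside the 120 bases printed here. It was found over the 250 bases in none of the other 7 member promoters and in 4.84% of all promoters. A match describes letters and is not evidence that a factor binds.

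In sgPrrx1 wound-healing fibroblasts these 3 genes rose. Mmp3 went from 10, 9 and 6 counts to 103, 83 and 74 counts, a 10.3-fold increase (log2 fold change 3.36, SE 0.28, adjusted p = 6.40e-06). Mmp13 went from 18, 2 and 14 counts to 128, 106 and 90 counts (3.25, SE 0.43, adjusted p = 0.000120), and Mmp10 from 25, 11 and 10 counts to 76, 93 and 75 counts (2.41, SE 0.32, adjusted p = 0.000138). No sgPrrx1 culture overlapped a WT culture for any of the 3, and even the raised levels stayed at 1.43 CPM or less.

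In sgPrrx1 MEF the same 3 genes were at or near 0. Mmp3 had 59, 8 and 28 counts in WT MEF, 38, 52 and 58 counts in Prrx1 mutant MEF and 0 counts in all 3 sgPrrx1 MEF cultures. Against a floor of 3 counts per culture Mmp3 was at least 10.2-fold lower in sgPrrx1 than in WT MEF, a bound that was 5.15-fold without WT replicate 1, and it did not pass the count filter of the test there. Mmp13 fell from 90, 77 and 114 counts to 0, 8 and 8 counts (log2 fold change -4.04, SE 0.60, adjusted p = 0.00217). Mmp10 fell from 39, 22 and 37 counts to 0, 0 and 10 counts (-3.21, SE 0.92, adjusted p = 0.0282). The Mmp10 call rests on few counts and was lost when any 1 of 5 of the 6 cultures was left out, with adjusted p from 0.0510 to 0.0806 in those 5 fits. In Prrx1 mutant MEF none of the 3 passed the test, with log2 fold changes of 0.57 for Mmp3 (SE 0.63, adjusted p = 0.458), -0.37 for Mmp10 (SE 0.40, adjusted p = 0.454) and 0.05 for Mmp13 (SE 0.19, adjusted p = 0.842).

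In MMTV-CAF the 3 genes did not share a direction. Mmp3 was at 2548, 2653 and 3130 counts in WT and 217, 283 and 249 counts in sgPrrx1 cultures, 11.4-fold lower (log2 fold change -3.52, SE 0.05, adjusted p = 5.21e-10). Mmp10 rose from 3, 3 and 9 counts to 63, 92 and 52 counts (3.71, SE 0.38, adjusted p = 3.15e-05), and Mmp13 from 101, 80 and 125 counts to 287, 376 and 321 counts (1.64, SE 0.14, adjusted p = 1.25e-05). Mmp3 thus fell while Mmp10 and Mmp13 rose, and for Mmp3 the sgPrrx1 change in MMTV-CAF minus that in wound-healing fibroblasts was -6.83 on the log2 scale (SE 0.54, adjusted p = 5.73e-08). For Mmp10 the difference between those 2 cell types was 1.34 (SE 0.83, adjusted p = 0.169), which passed without replicate 3 of each group (adjusted p = 0.0211).

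**Figure D2:**
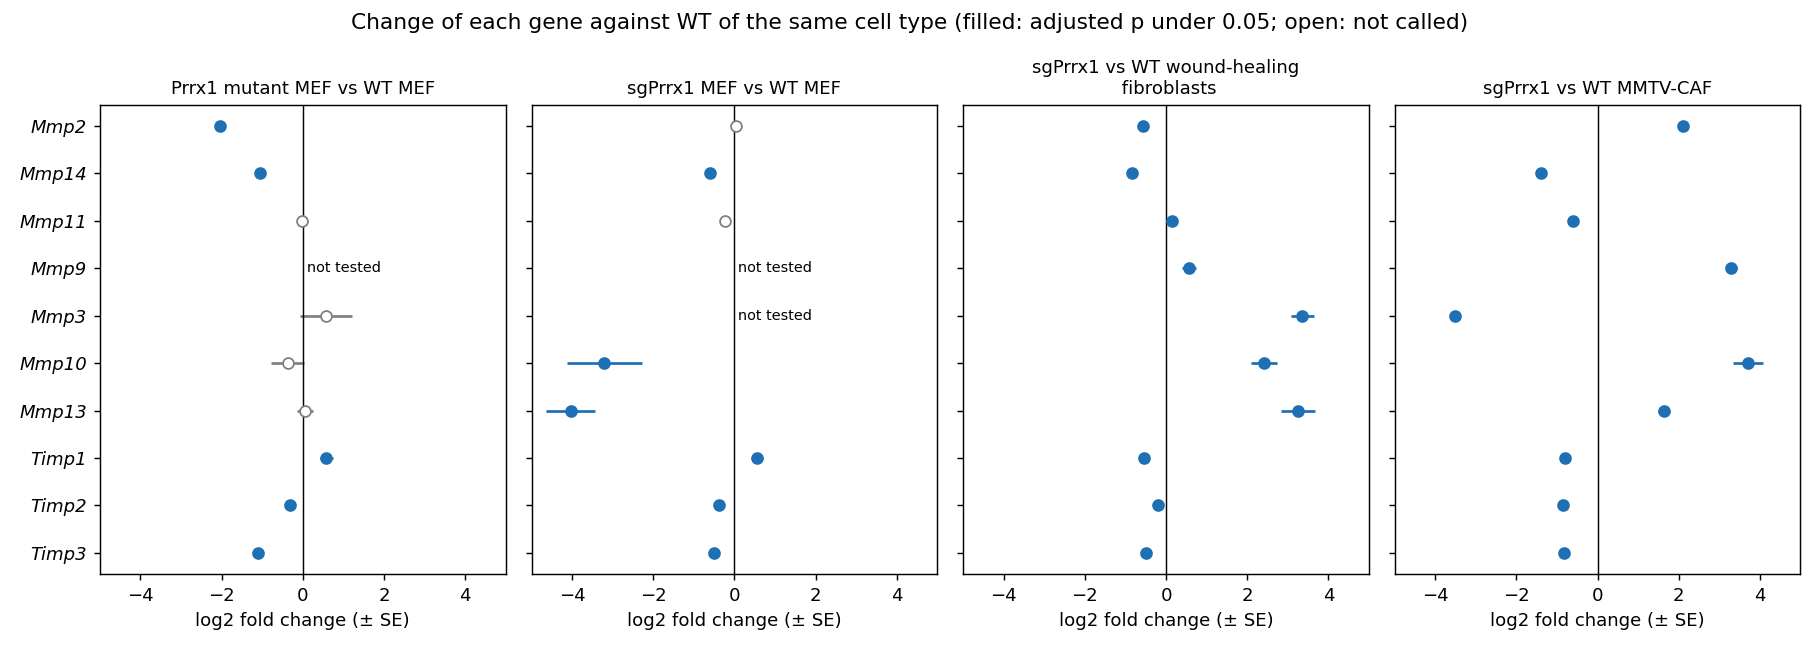
Log2 fold change of each member against WT of the same cell type, with bars of 1 SE hidden where smaller than the point, filled where the adjusted p was under 0.05 and open where it was not. Mmp14, Timp2 and Timp3 lie left of 0 in all 4 panels, and Mmp3, Mmp10 and Mmp13 span from -4.04 to 3.71 between panels.

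Timp3, the inhibitor that binds to the extracellular matrix and also blocks ADAM and ADAMTS proteases, was lower in every Prrx1-loss group. It was 335, 354 and 347 CPM in WT MEF, 179, 156 and 153 CPM in Prrx1 mutant MEF and 236, 251 and 255 CPM in sgPrrx1 MEF. It was 411, 401 and 416 CPM in WT and 296, 290 and 291 CPM in sgPrrx1 wound-healing fibroblasts. In WT MMTV-CAF, which stood above all other groups, it was 1760, 1737 and 1752 CPM, against 1006, 1003 and 991 CPM in sgPrrx1 MMTV-CAF. The log2 fold changes were -1.11 (SE 0.09, adjusted p = 8.72e-05) in Prrx1 mutant MEF, -0.50 (SE 0.06, adjusted p = 0.00106) in sgPrrx1 MEF, -0.49 (SE 0.02, adjusted p = 4.23e-08) in wound-healing fibroblasts and -0.83 (SE 0.01, adjusted p = 7.22e-10) in MMTV-CAF. In the older build NCBIM37, 21.3% of its exonic bases are shared with Syn3 on the opposite strand, and since the library kit did not mark strand, reads of the 2 genes cannot be told apart there.

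Timp2, the partner of Mmp14 in Mmp2 activation, was the TIMP with the steadiest level and also fell in all 4 comparisons. In MEF it was 771, 746 and 709 CPM in WT, 575, 614 and 641 CPM in Prrx1 mutant and 603, 570 and 555 CPM in sgPrrx1 cultures. In MMTV-CAF it was 736, 774 and 770 CPM in WT and 426, 428 and 420 CPM in sgPrrx1 cultures, and in wound-healing fibroblasts 471, 464 and 469 CPM against 417, 402 and 412 CPM. The groups did not overlap in any of these. The log2 fold change was -0.31 in Prrx1 mutant MEF (SE 0.08, adjusted p = 0.0123), -0.38 in sgPrrx1 MEF (SE 0.07, adjusted p = 0.00438), -0.19 in wound-healing fibroblasts (SE 0.02, adjusted p = 1.39e-05) and -0.86 in MMTV-CAF (SE 0.02, adjusted p = 1.02e-08). The call in Prrx1 mutant MEF was lost without WT replicate 2 (adjusted p = 0.0564) or without mutant replicate 2 (adjusted p = 0.0554).

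Timp1, a secreted inhibitor of most soluble MMPs, rose in MEF and fell in the other 2 cell types. It was 69.9, 80.5 and 103 CPM in WT MEF, 138, 131 and 116 CPM in Prrx1 mutant MEF and 113, 125 and 137 CPM in sgPrrx1 MEF. The WT cultures were the most spread of the 3 groups and still lay below both Prrx1-loss groups, which share them as controls. The log2 fold change was 0.58 (SE 0.15, adjusted p = 0.0140) and 0.55 (SE 0.15, adjusted p = 0.0222), respectively. Leaving out WT replicate 2 ended the first call (adjusted p = 0.0511), and leaving out any 1 of 4 of the 6 cultures, namely WT replicates 1 and 2 and sgPrrx1 replicates 2 and 3, ended the second, with adjusted p from 0.0541 to 0.0734. In wound-healing fibroblasts Timp1 went from 329, 335 and 334 CPM to 230, 233 and 228 CPM (-0.54, SE 0.02, adjusted p = 1.84e-08), and in MMTV-CAF from 324, 328 and 332 CPM to 186, 190 and 191 CPM (-0.81, SE 0.02, adjusted p = 3.31e-09). The sgPrrx1 change in wound-healing fibroblasts minus that in MEF was -1.12 on the log2 scale (SE 0.13, adjusted p = 2.54e-06), while the change in MMTV-CAF minus that in wound-healing fibroblasts was -0.22 (SE 0.13, adjusted p = 0.148), which passed without replicate 3 of each group (adjusted p = 0.0434).

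Counted over the members, 5 of the 9 tested changed in Prrx1 mutant MEF, with 4 down and 1 up, where 59.9% of 13616 genes passed the same test (30.5% lower and 29.4% higher). In sgPrrx1 MEF 6 of 8 changed, with 5 down and 1 up, where 43.1% of 13372 genes did (22.8% and 20.3%). All 10 changed in sgPrrx1 wound-healing fibroblasts, 5 in each direction, where 77.6% of 13939 genes did (39.3% and 38.3%). All 10 also changed in sgPrrx1 MMTV-CAF, with 6 down and 4 up, where 83.1% of 13903 genes did (41.9% and 41.2%). The median log2 fold change of the members tested was -0.31, -0.44, -0.02 and -0.71 in these comparisons, against 0.00944, 0.00172, 0.00443 and -0.00318 over all genes. Changes of at least 2-fold concerned 3, 2, 3 and 6 members, respectively, where 24.1%, 10.6%, 15.6% and 24.3% of genes changed by that much. The share of members that passed was thus near the background in Prrx1 mutant MEF, and in the other comparisons a large part of all genes passed as well. Mmp10 and Mmp13 in sgPrrx1 MEF, Mmp3 and Mmp13 in wound-healing fibroblasts and Mmp10 in MMTV-CAF reached 10 counts in every culture of 1 group alone, the one with the higher level, so their entry into the test is not independent of their change.

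The sgPrrx1 change was also compared between cell types. Mmp3 and Mmp9 did not pass the count filter in sgPrrx1 MEF and entered these fits through the other cell types, so they are left out of the counts that involve MEF. A joint test of the sgPrrx1 change across MEF, wound-healing fibroblasts and MMTV-CAF passed for the 8 members that could be tested in MEF, where 80.1% of 14972 genes passed. The smallest adjusted p of the 8 belonged to Mmp2 (7.18e-14) and the largest to Timp3 (1.11e-05). Of the 8, Mmp10 and Mmp13 reached 10 counts in every culture of WT MEF but not of sgPrrx1 MEF. Their place in these counts is thus not independent of their change. The drop of Prrx1 mRNA itself was unequal between the cell types (adjusted p = 0.00145). For MMTV-CAF against wound-healing fibroblasts its difference did not pass (0.17, SE 0.13, adjusted p = 0.269). Of the same 8 members, 7 differed for wound-healing fibroblasts against MEF and 8 for MMTV-CAF against MEF, where 60.3% and 60.7% of genes differed. For MMTV-CAF against wound-healing fibroblasts 8 of all 10 differed, where 66.5% of genes did. The call for Mmp13 was lost without replicate 2 or 3 of each group (adjusted p = 0.0886 and 0.0991). Mmp3 and Mmp13 in wound-healing fibroblasts and Mmp10 in MMTV-CAF reached 10 counts in every sgPrrx1 culture but not in every WT culture. The place of these genes in this count is thus not independent of their levels. Mmp14 and Timp2, lowered in all 3 cell types, fell by unequal amounts between each pair. For wound-healing fibroblasts against MEF that call was lost without replicate 2 for Mmp14 (adjusted p = 0.0600) and without replicate 1 or 2 for Timp2 (adjusted p = 0.0646 and 0.238). For Timp3 the change in wound-healing fibroblasts minus that in MEF was -0.03 (SE 0.04, adjusted p = 0.623).

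The 2 MEF models of Prrx1 loss also differed from each other. Of 9 members tested, 6 differed between sgPrrx1 MEF and Prrx1 mutant MEF, 3 lower and 3 higher, where 56.2% of 13379 genes did (28.4% lower and 27.8% higher). The 3 lower members were Mmp3, Mmp10 and Mmp13. These reached 10 counts in every culture of Prrx1 mutant MEF alone, so their entry into the test is not independent of their change. Mmp2 was 4.21-fold higher in sgPrrx1 MEF (log2 difference 2.07, SE 0.09, adjusted p = 7.26e-06), and Timp3 (0.61, SE 0.08, adjusted p = 0.00107) and Mmp14 (0.44, SE 0.10, adjusted p = 0.00866) were also higher. Mmp13 was lower (-4.09, SE 0.58, adjusted p = 0.00125), and Mmp3 was at least 15.4-fold lower against the same floor of 3 counts per culture. Mmp10 was lower (-2.84, SE 0.96, adjusted p = 0.0427), a call that rests on 10 counts in 1 of the 3 sgPrrx1 cultures and was lost without any 1 of 5 of the 6 cultures (adjusted p 0.0529 to 0.112). Prrx1 mRNA itself was 5.43-fold higher in sgPrrx1 MEF than in Prrx1 mutant MEF (2.44, SE 0.18, adjusted p = 6.79e-05).

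The balance of inhibitors and enzymes at the RNA level was followed, as a description, by a ratio of summed levels in RPKM. The summed level of the 3 TIMPs was divided by that of the 7 MMPs described here. Other MMPs with enough counts to be tested, among them Mmp23, are not in these sums. The ratio was 0.963 to 0.995 in WT MEF, 1.98 to 2.53 in Prrx1 mutant MEF and 1.11 to 1.32 in sgPrrx1 MEF. In wound-healing fibroblasts it was 3.95 to 3.99 in WT and 4.63 to 4.71 in sgPrrx1 cultures. In MMTV-CAF it went the other way, from 1.73 to 1.80 in WT down to 1.01 to 1.03 in sgPrrx1 cultures. The MMP sum in MMTV-CAF was 444 RPKM in WT and 435 RPKM in sgPrrx1 cultures, while the TIMP sum went from 779 to 445 RPKM. Within that near-equal MMP sum the leading enzyme changed, since Mmp2 made up 14.5% of it in WT and 64.7% in sgPrrx1 cultures, and Mmp14 made up 75.6% and 29.5%. In Prrx1 mutant MEF the TIMP sum was 321 RPKM against 328 RPKM in WT, and the MMP sum was 143 against 336 RPKM. The ratio of Mmp2 to Timp2 went from 0.612 to 0.183 in Prrx1 mutant MEF and from 0.329 to 2.58 in sgPrrx1 MMTV-CAF.

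**Figure D3:**
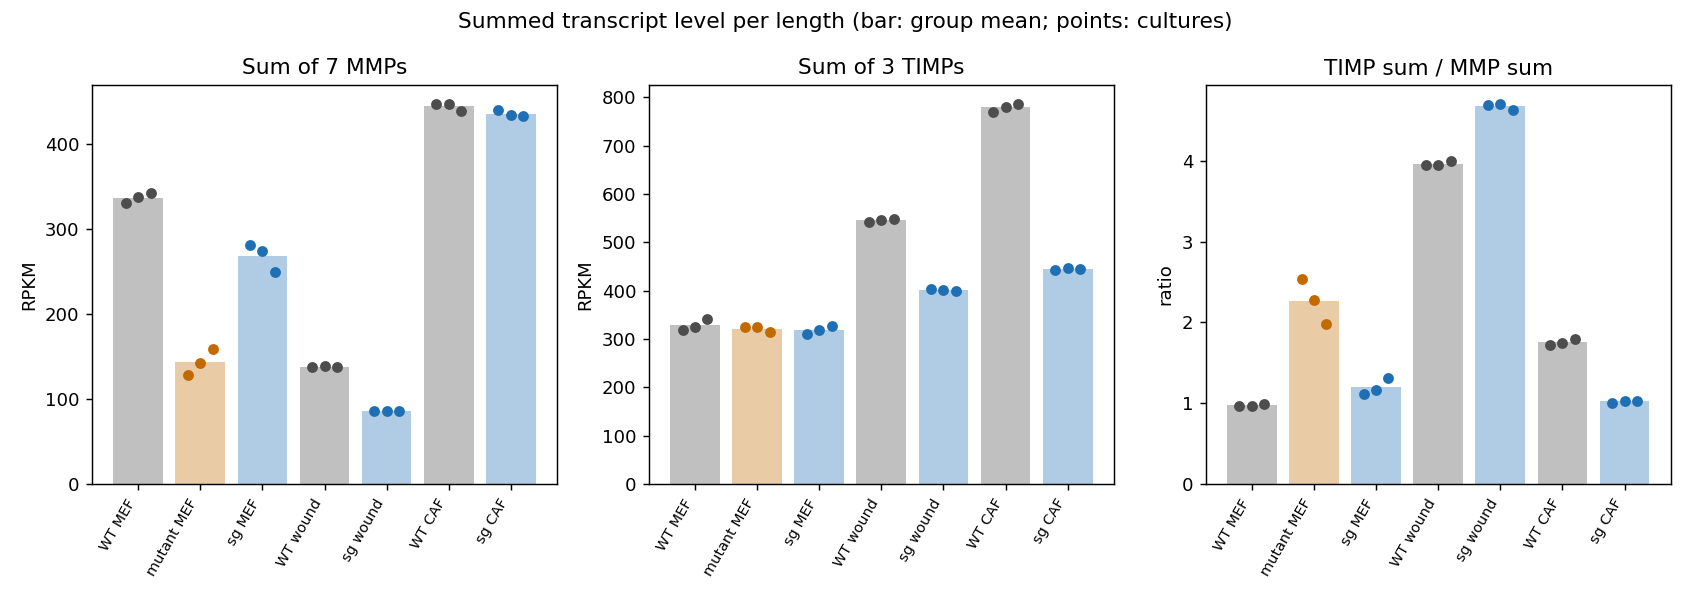
Summed RPKM of the 7 MMPs and of the 3 TIMPs, and their ratio, with bars for the means of 3 cultures and points for cultures. The ratio is higher than WT in Prrx1 mutant MEF, at 1.98 to 2.53 against 0.963 to 0.995, and lower than WT in sgPrrx1 MMTV-CAF, at 1.01 to 1.03 against 1.73 to 1.80.

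The WT cultures differed between cell types before any loss of Prrx1. WT MMTV-CAF exceeded WT MEF in 6 of 10 members and fell below in 2 (79.2% of 14380 genes differed, 40.6% higher and 38.6% lower), with Mmp3 53.5-fold higher (log2 difference 5.74, SE 0.41, adjusted p = 1.21e-06) and Timp3 4.90-fold higher (2.29, SE 0.03, adjusted p = 1.24e-10). WT wound-healing fibroblasts were lower than WT MEF in 7 members and higher in 3, with the calls lost without replicate 1 or 3 of each group for Mmp3 (adjusted p = 0.0663 and 0.0822) and without replicate 2 or 3 for Mmp10 (adjusted p = 0.0862 and 0.110) (80.3% of genes differed, 39.4% lower and 40.9% higher), with Mmp2 4.64-fold lower (-2.21, SE 0.05, adjusted p = 2.01e-09) and Timp1 4.03-fold higher (2.01, SE 0.12, adjusted p = 2.46e-07). Between WT MMTV-CAF and WT wound-healing fibroblasts 8 members differed, 7 higher and 1, Mmp10, lower in MMTV-CAF, the latter lost without replicate 1 of each group (adjusted p = 0.0744) (80.4% of genes differed, 39.4% higher and 41.1% lower), and the values for Timp1 (-0.10, SE 0.11, adjusted p = 0.434) and Mmp9 (0.15, SE 0.47, adjusted p = 0.785) did not pass. Of the scarce members, Mmp3 reached 10 counts in every culture of WT MMTV-CAF alone. Mmp9 did so in WT wound-healing fibroblasts and WT MMTV-CAF, Mmp10 in WT MEF and WT wound-healing fibroblasts, and Mmp13 in WT MEF and WT MMTV-CAF. The entry of these genes into the WT tests is thus not independent of their differences. The 3 cell types were deposited as separate tables, and a difference between types cannot be told apart from one between tables.

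Among 17 other genes of these families, namely the remaining MMPs and Timp4, 7 or 8 had enough counts to be tested in each comparison. Prrx1 mutant MEF had 5 of 7 down and 0 up, with a median log2 fold change of -1.37. The counts were 2 lower of 7 in sgPrrx1 MEF (median -0.67), 4 lower and 1 higher of 7 in wound-healing fibroblasts (-0.47) and 6 lower of 8 in MMTV-CAF (-1.54). The shares of all genes that fell were 30.5%, 22.8%, 39.3% and 41.9%. Mmp23, a small membrane-tethered MMP, fell in both MEF groups and in MMTV-CAF, from 59.1 to 2.80 CPM in Prrx1 mutant MEF (log2 fold change -4.42, SE 0.15, adjusted p = 2.51e-06) and from 33.2 to 0.535 CPM in MMTV-CAF (-5.96, SE 0.10, adjusted p = 7.92e-10). In wound-healing fibroblasts it rose from 70.5 to 83.1 CPM (0.23, SE 0.02, adjusted p = 2.89e-05), a call lost in a model of all 21 cultures (adjusted p = 0.0559). Mmp15, a membrane-type relative of Mmp14, fell in 3 of the 4 comparisons, with the call in wound-healing fibroblasts lost without any 1 of 4 of the 6 cultures (adjusted p from 0.0611 to 0.0760), and stood at 0.14 in sgPrrx1 MEF (SE 0.14, adjusted p = 0.453). Mmp28 was lower in all 4, with log2 fold changes of -2.73, -0.95, -1.46 and -1.10. Timp4 had 5 counts or fewer in every culture and was not tested.

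ADAMTS proteases, secreted relatives that cut proteoglycans such as versican and aggrecan, were tested as a list of 19. Of those with enough counts, 9 of 10 fell in Prrx1 mutant MEF, 8 of 11 fell and 1 rose in sgPrrx1 MEF, and 10 of 13 fell and 3 rose in MMTV-CAF. Wound-healing fibroblasts had 6 down and 5 up of 11. Among all genes 30.5% fell in Prrx1 mutant MEF, 22.8% in sgPrrx1 MEF, 41.9% in MMTV-CAF and 39.3% in wound-healing fibroblasts, and the list medians were -1.40, -0.93, -1.18 and -0.22 on the log2 scale. Adamts1 fell in all 4 comparisons, from a mean of 729 CPM in WT MEF to 300.4 CPM in Prrx1 mutant and 130.2 CPM in sgPrrx1 MEF, from 98.1 to 35.8 CPM in wound-healing fibroblasts and from 265 to 67.1 CPM in MMTV-CAF. Adamts5, an aggrecanase, had log2 fold changes of -1.49, -2.14, -3.46 and -1.30 (SE 0.11, 0.09, 0.03 and 0.02). The largest adjusted p of these 8 changes was 0.000141.

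Of 8 ADAM genes, membrane-anchored shedding proteases, 7 were lower in Prrx1 mutant MEF and 3, 3 and 5 in the other comparisons, with 1, 3, 3 and 2 higher. Of all genes, 30.5%, 22.8%, 39.3% and 41.9% fell and 29.4%, 20.3%, 38.3% and 41.2% rose, and the list medians were -0.67, -0.19, 0.01 and -0.32 on the log2 scale. Adam33 was lowered at least 2-fold in all 4, from a mean of 1.28 CPM in WT MEF to 2 counts or fewer per culture in Prrx1 mutant MEF, and with a log2 fold change of -1.41 in wound-healing fibroblasts (SE 0.16, adjusted p = 4.60e-05). Among 10 other matrix proteases, 6 of 7 tested were down and 0 up in Prrx1 mutant MEF, and the counts were 5 and 1 of 7, 5 and 3 of 9 and 4 and 3 of 7 in the other comparisons, to be read against the same background, with medians of -0.91, -0.48, -0.50 and -0.80. Ctsk, the collagen-cutting cathepsin K, fell in all 4, from 22.6 to 0.370 CPM in MMTV-CAF (-5.96, SE 0.11, adjusted p = 1.49e-09) and from 4.28 to 0.131 CPM in Prrx1 mutant MEF (-5.04, SE 0.22, adjusted p = 5.27e-06). Tll1, a tolloid protease that processes procollagen, fell in both MEF groups (-2.22 and -2.42 on the log2 scale) and in MMTV-CAF from 10.2 to 0.0133 CPM, while it rose in wound-healing fibroblasts (0.48, SE 0.04, adjusted p = 6.81e-06). Fap, fibroblast activation protein, was tested in wound-healing fibroblasts alone and fell from 1.51 to 0.0415 CPM (-5.23, SE 0.50, adjusted p = 1.43e-05). Adam33 in Prrx1 mutant MEF, Tll1 in MMTV-CAF and Fap passed the count filter through their WT cultures. Their entry into the test is thus not independent of their drop.

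**Figure D4:**
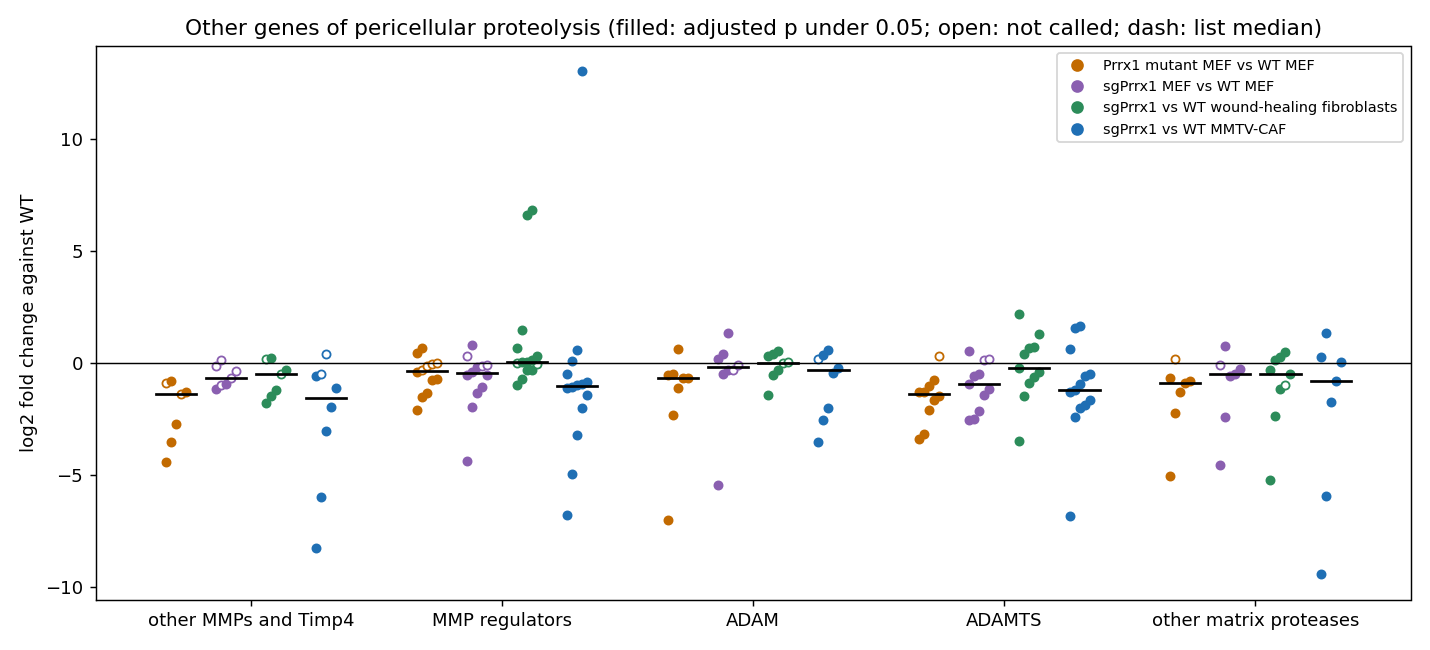
Log2 fold change against WT of the genes tested in 5 lists of related proteases and regulators, 1 point per gene and colour per comparison, filled where the adjusted p was under 0.05, with the list median as a dash. Medians of the ADAMTS list lie at -1.40, -0.93, -0.22 and -1.18, and the highest point is Lcn2 in MMTV-CAF at 13.03, where WT cultures held 7 counts or fewer.

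Genes that act on MMPs or TIMPs were tested as a list of 16. In MMTV-CAF 11 of 14 tested fell and 3 rose. The corresponding counts were 6 and 2 of 12 in Prrx1 mutant MEF, 8 and 1 of 12 in sgPrrx1 MEF, and 4 and 8 of 14 in wound-healing fibroblasts. Of all genes 41.9% fell and 41.2% rose in MMTV-CAF, 30.5% and 29.4% in Prrx1 mutant MEF, 22.8% and 20.3% in sgPrrx1 MEF, and 39.3% and 38.3% in wound-healing fibroblasts. The list medians were -1.01, -0.36, -0.46 and 0.05 on the log2 scale, in the same order. Reck, a membrane-anchored inhibitor of MMPs, fell in all 4, with log2 fold changes of -2.07, -0.53, -0.32 and -0.97 (SE 0.09, 0.07, 0.07 and 0.03, adjusted p 0.00392 or less). Furin, the protease that activates Mmp11 and Mmp14, stood at -0.04 (SE 0.11) and -0.15 (SE 0.08) in the MEF groups, neither passing the test, rose in wound-healing fibroblasts (0.30) and fell in MMTV-CAF (-0.47). Lcn2, lipocalin-2, which binds Mmp9 and shields it from degradation, went from at most 7 counts per culture in WT MMTV-CAF to 19374 to 24709 counts in sgPrrx1 cultures (adjusted p = 2.72e-09). In wound-healing fibroblasts Lcn2 had 0 counts in WT and 9 to 18 counts in sgPrrx1 cultures (adjusted p = 0.000612), and it was not tested in MEF. In MMTV-CAF and wound-healing fibroblasts Lcn2 passed the count filter through the sgPrrx1 cultures alone. Its entry into these tests is thus not independent of its rise. Pcolce, which enhances procollagen processing, was lower in all 4 comparisons, for example from 632 to 317 CPM in wound-healing fibroblasts. Thbs2, a matricellular protein that promotes Mmp2 uptake, was lower in both MEF groups (-1.52 and -4.38 on the log2 scale) and in MMTV-CAF (-1.41), but stood at 0.06 in wound-healing fibroblasts, a call that was lost in a model of all 21 cultures (adjusted p = 0.695).

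For each member, the gene with the most similar pattern over the 21 cultures was sought among 15093 genes, on log2 CPM with the mean of each cell type removed. Mmp14 lay closest to Actg2 (r = 0.991), Timp1 to Myl12a (r = 0.978) and Timp2 to Myl9 (r = 0.985), an actin and 2 myosin light chains of the contractile apparatus. Mmp2 lay closest to H2-Q4, a class I histocompatibility gene (r = 0.993), Timp3 to FAM198B (r = 0.982), Mmp3 to Neb (r = 0.969) and Mmp11 to Gnb2 (r = 0.962). The scarce Mmp13, Mmp10 and Mmp9 had lower values, with Uvssa (r = 0.929), Plekhh2 (r = 0.917) and Scfd2 (r = 0.847). These values are descriptions, each the highest of many, over cultures that fall into 7 groups.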

How the data were processed

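RNA of 21 cultures was sequenced by the authors from unstranded TruSeq libraries, and per the labels and the study's methods the read processing used Trimmomatic for trimming, STAR for alignment (mm10) and HTSeq for counting. The gene annotation and the strand and overlap settings are not given in the sources used here. The methods also name a ComBat-seq batch correction, after the sentence on human data; whether it was applied to these counts is not given. The deposited files hold read counts per gene, as whole numbers, in 1 table each for MEF, wound-healing fibroblasts and MMTV-CAF. Counts from 1 to 20 were even in 51.0% to 60.1% of cases per culture, so some fragments may have been counted by both mates; halved counts were run as an alternative chosen after seeing the data. Samples were grouped by title, and columns were matched to titles by genotype and number, the wound-healing table by elimination of the other cell types.

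Genes were kept by filterByExpr, scaled by TMM and tested with edgeR 4.0.16 quasi-likelihood tests (R 4.3.3), with Benjamini-Hochberg adjustment over all genes tested and a threshold of 0.05. Each comparison was fitted on its 6 cultures, the difference of the sgPrrx1 change between cell types on 18 cultures and WT levels on 9. SE is the log2 fold change divided by the square root of F. CPM used joint TMM factors over the 21 cultures. RPKM used union exon lengths of Gencode M1 on NCBIM37, an older build than mm10, so gene lengths are approximate. Coordinates and promoters came from RefSeq, GRCm38.p6, with an entry for 8 of the 10 members. A count of 0 allows up to 3 counts, or 0.0222 to 0.0443 CPM per culture; such floors cover counting error only. The code was tested on simulated counts.

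The members and gene lists were chosen with earlier results of these data known. Named list genes were those changed at least 2-fold in 1 direction in 3 or 4 of the 4 comparisons with WT, plus Reck, Furin, Lcn2, Fap and Timp4. Replicate numbers were checked for pairing by the correlation of deviations from the group means; the values ran from -0.35 to 0.20 and no comparison had all 3 over 0.1, so the numbers were not taken as pairs. Alternatives were DESeq2 1.42.0, RLE and upper-quartile scaling, other filters on low counts, a replicate block, wider models and each culture left out. The fits between cell types left out each replicate number in every group instead.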

Additional observations from a re-analysis of the deposited data

Results flagged for a closer look

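The sgPrrx1 change differed between MEF, wound-healing fibroblasts and MMTV-CAF in a joint edgeR test for the members listed here. The drop of Prrx1 mRNA was itself unequal, at -0.60, -1.18 and -1.06 on the log2 scale (joint adjusted p = 0.00145). Its difference between MMTV-CAF and wound-healing fibroblasts did not pass (0.17, SE 0.13, adjusted p = 0.269). Whether the cell types respond unequally to an equal loss of Prrx1 was not tested. The adjusted p was 7.18e-14 for Mmp2, 1.03e-07 for Mmp3, 2.98e-05 for Mmp9, 9.63e-06 for Mmp10, 1.12e-06 for Mmp11, 1.23e-07 for Mmp13, 2.83e-08 for Mmp14, 2.76e-07 for Timp1, 2.15e-07 for Timp2 and 1.11e-05 for Timp3. Of all 14972 genes tested, 80.1% passed the same test, so the share among these genes is read against that background. The direction itself differed for Mmp2, Mmp3, Mmp10, Mmp11, Mmp13 and Timp1, while Mmp14, Timp2 and Timp3 were lower in all 3 cell types, with amounts that differed between every pair of types for Mmp14 and Timp2 and between 2 of the 3 pairs for Timp3. Mmp3 and Mmp9 did not pass the count filter within MEF, where sgPrrx1 cultures held 0 counts of Mmp3 and no culture held over 14 of Mmp9, and both entered the joint test through the other cell types. For Mmp9 the difference between wound-healing fibroblasts and MEF was lost without replicate 2 or 3 of each group (adjusted p = 0.0522 and 0.186). Mmp10 and Mmp13 reached 10 counts in every culture of WT MEF but not of sgPrrx1 MEF, so their entry is not independent of their change. Cell type, deposited table and, for MMTV-CAF, strain cannot be told apart in the joint test.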

How the results depend on the processing

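Requiring at least 10 counts in every culture removed scarce members by construction. The members called lower in sgPrrx1 MEF then numbered 3, those called higher in wound-healing fibroblasts 3, and those called between the 2 MEF models 3, with 0 lower. The joint test across cell types then called 6 members, and the WT comparisons 6 (wound-healing against MEF), 5 (MMTV-CAF against MEF) and 5 (MMTV-CAF against wound-healing). Only Mmp2, Mmp11, Mmp14, Timp1, Timp2 and Timp3 could be tested in the joint and WT fits. The joint test thus called every member that it tested. The shares of all genes under this filter are not given here. With the replicate block, 3 members were called in Prrx1 mutant MEF and 0 of them higher, since Timp1 (adjusted p = 0.0517) and Timp2 (adjusted p = 0.0639) were lost; the block also ended the calls of Mmp9 in wound-healing fibroblasts (adjusted p = 0.0528) and of Mmp10 and Mmp14 between the MEF models (adjusted p = 0.123 and 0.0603). The block changed no other call, and the replicate numbers were not found to pair the cultures. The shares of all genes called with the block are not given here. RLE scaling and halved counts changed no call or direction among the 207 and 120 results recomputed, and DESeq2 did so for 2 of 207, both gained.

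Leaving out 1 culture at a time gave 3 to 5 members called in Prrx1 mutant MEF (3 to 4 lower, 0 to 1 higher), 5 to 6 in sgPrrx1 MEF (4 to 6 lower, 0 to 1 higher), 9 to 10 in wound-healing fibroblasts, 10 in MMTV-CAF and 5 to 6 between the MEF models (2 to 3 lower). The fits between cell types left out 1 replicate number in every group at a time. The joint test then called 10 members each time, Mmp3 and Mmp9 included. The WT comparisons called 8 to 9 (wound-healing against MEF), 8 (MMTV-CAF against MEF) and 7 to 8 (MMTV-CAF against wound-healing). Genes called ran from 6647 to 8177 in Prrx1 mutant MEF, 3830 to 6340 in sgPrrx1 MEF and 10341 to 10520 in wound-healing fibroblasts. They ran from 11233 to 11474 in MMTV-CAF and from 6215 to 7579 between the MEF models. The joint test called 10053 to 11506 genes. The WT comparisons called 10427 to 11293, 10079 to 11186 and 10412 to 11267 genes, in the order above. The shares of genes tested in these fits are not given here.

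Values that changed sign were all ones that did not pass the test. Over the fits that left out 1 culture, Mmp11 in Prrx1 mutant MEF ran from -0.0806 to 0.0546 (0.00467 and 0.0313 in between without WT replicates 2 and 3), Mmp13 there from -0.0526 to 0.143 (-0.0252 without WT replicate 2) and Furin from -0.117 to 0.0627. Mmp2 in sgPrrx1 MEF ran from -0.0192 to 0.0860, and Timp1 between the MEF models from -0.111 to 0.0282 (0.0182 without mutant replicate 1). The fits between cell types left out 1 replicate number in every group instead. In these the Timp3 change in wound-healing fibroblasts minus MEF ran from -0.0485 to 0.00390. In WT, Timp2 in MMTV-CAF minus MEF ran from -0.0228 to 0.0460 and Mmp9 in MMTV-CAF minus wound-healing fibroblasts from -0.133 to 0.369. Upper-quartile scaling put that Timp3 difference at 0.0229, and a minimum of 10 counts put it at 0.0103. With no filter on low counts the WT Timp2 difference was 0.0374, and Mmp10 in sgPrrx1 MEF lost its call (adjusted p = 0.0571). One model of all 21 cultures put Mmp11 in Prrx1 mutant MEF at 0.00726 and brought it past the threshold in sgPrrx1 MEF (adjusted p = 0.00916). The cause was not tested. Depth limits Mmp9 in MEF and Mmp3 and Mmp10 in sgPrrx1 MEF, which rest on at most 14 counts per culture.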
